A study of Mus musculus with 9 samples.

Results

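Old liver from mice given a viral hairpin against Fabp4 was compared with young liver, using 6 of the 9 libraries of the series, 3 in each group. The libraries were taken by their names in the deposited count table. All mice were wild-type C57BL/6 males fed normal chow, and the tissue was whole liver. The hairpin mice were 20 months old and had received adeno-associated virus 9 carrying AAV9-shRNA-Fabp4 at 14 months, by tail vein and directly into subcutaneous white fat (sWAT). The young mice were 8 weeks old, and no injection is described for them, so that age and virus cannot be told apart in this comparison. A further 3 old libraries from mice of the same age, injected the same way with the negative hairpin AAV9-shRNA-Neg, are called old control here. They enter the estimate of spread and are set beside the members where a value needs a reference of the same age. The labels describe the replicates as independent biological samples. They do not say which promoter drives the hairpin or at what time of day the livers were taken, and their RNA extraction text names NRVMs although the tissue is given as liver. The series title concerns rejuvenation of liver metabolism, and the question put to the counts here is which genes still differed from young liver after the hairpin.

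FABP4 is a small cytosolic protein that carries fatty acids. It is made mainly by adipocytes, and also by macrophages and some capillary endothelium, and it is secreted into blood, while hepatocytes rely on the related FABP1. In the ageing liver, hepatocytes are known to alter lipid and amino acid handling, and endothelial, stellate and immune cells change in number and state. In whole tissue, fewer cells of a type and less RNA per cell cannot be told apart.

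Counts per library ran from 14243344 to 17125440, and 3 counts, taken as the floor of detection, stood for 0.175 to 0.211 CPM, edgeR's count scaled to library size. Albumin took 5.34% to 10.4% of the counts of a library, and the hepatocyte markers summed to 97590 to 203800 CPM. Mitochondrially encoded genes took 6.89% to 13.8% of counts in young liver and 4.15% to 8.47% in the hairpin-labelled libraries. One young count column carries a number that no young label carries, and it is called the unnumbered young library here. Skeletal muscle markers took 0.546% of its counts, against 0.003% to 0.017% in the other 8 libraries, and its deposited FPKM values do not follow from its counts. Whether its count and FPKM columns hold the same library is not known. Fits with reads recovered from the FPKM column are therefore not to be read as the same counts reprocessed. Results are given with and without the unnumbered library. CPM values below carry TMM scaling, edgeR's trimmed mean of M values, and library values are listed as young 1, young unnumbered and young 5, then old control 1, 2 and 5, then hairpin-labelled 1, 3 and 6.

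Few single genes passed the test with edgeR and the 9 count columns, and 7 of these 8 were higher in the old hairpin-labelled liver. The balance depended on the method, DESeq2 calling 51 higher and 73 lower. Of 14025 tested genes, 7 rose (0.0499% of those tested) and 1 fell (0.00713%) at an adjusted p under 0.05 in edgeR. The genes that rose were Noct, Dmrta1, Gm15401, Gm37969, Gtpbp4-ps1, Gm40923 and Igkv3-2, and the gene that fell was Tceal8. At an unadjusted p under 0.05, 622 genes were higher (4.43%) and 631 lower (4.5%), with a median log2 fold change of 0.02 over all tested genes. In 952 genes (6.79%) every hairpin-labelled library lay above every young library, and in 935 (6.67%) below. Without the unnumbered young library, 4 of 14413 genes rose (0.0278%) and 2 fell (0.0139%), and 1001 genes (6.95%) were higher and 804 (5.58%) lower at the unadjusted threshold. In both fits, 969 genes passed the unadjusted threshold in the same direction. When the unnumbered column was replaced by reads recovered from its FPKM values, 33 of 13922 genes rose (0.237%) and 29 fell (0.208%). The volcano plots place the called genes against all others in the fits with and without the unnumbered library.

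**Figure D1:**
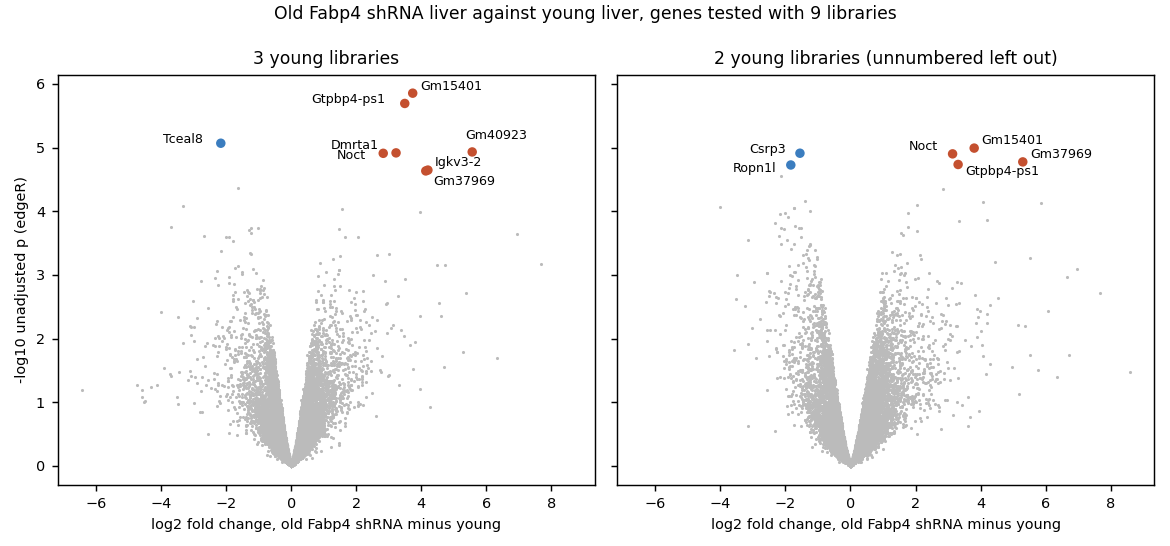
Each point is a gene, with the log2 fold change of hairpin-labelled old liver against young liver on the x axis and -log10 of the unadjusted edgeR p on the y axis, for the fit to 9 libraries and for the fit without the unnumbered young library. The 8 genes called in the first fit stand to both sides of 0, with 7 on the higher side.

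The targeted gene did not separate the groups. Fabp4 (ENSMUSG00000062515), the fatty acid chaperone the hairpin is directed at, lies at chr3:10204088-10208576 on the minus strand of GRCm38. It stood at 3.40, 64.8 and 2.67 CPM in young liver, at 7.21, 13.6 and 10.9 CPM in old control and at 11.2, 3.81 and 7.58 CPM in the hairpin-labelled libraries. The unnumbered young library was far above all others, the 2 other young libraries were the lowest of the 9, and the first hairpin-labelled library was above 2 of the 3 old control libraries. The log2 fold change against young was -1.66 ± 1.17 (SE, adjusted p = 0.700) with all libraries. A two-sided exact permutation test of the 3 hairpin-labelled against the 3 young values gave p = 1, where the smallest p the design allows is 0.1. It turned to 1.30 without the unnumbered one (adjusted p = 0.289) and to 1.38 with the recovered reads. Against old control it was -0.49 ± 1.16 (adjusted p = 0.960). Fabp4 was thus not shown to be lower than in old control, and directions below belong to libraries labelled with the hairpin.

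Noct, also called nocturnin, removes a phosphate from NADP coenzymes, is rhythmic in liver and is known for its role in lipid handling. Noct (chr3:51224447-51251644, plus strand) stood at 20.3, 31.2 and 16.1 CPM in young liver, at 228, 246 and 143 CPM in old control and at 157, 239.7 and 84.3 CPM in the hairpin-labelled libraries. All 6 old libraries lay above all 3 young libraries, and the 2 old groups overlapped. The log2 fold change against young was 2.83 ± 0.40 (adjusted p = 0.0287), and 3.14 without the unnumbered library (adjusted p = 0.045). Its gene model overlaps the unverified transcript Gm38357, and no source used here states whether counting used strand. The 300 bases around the annotated start are shown because Noct is the called gene with a known role in liver lipid handling. They are RefSeq sequence of GRCm38.p6, from 250 bases before to 50 after the start, and capitals mark CCAAT boxes on either strand (CCAAT or ATTGG):
Noct, chr3:51224197-51224496, plus strand: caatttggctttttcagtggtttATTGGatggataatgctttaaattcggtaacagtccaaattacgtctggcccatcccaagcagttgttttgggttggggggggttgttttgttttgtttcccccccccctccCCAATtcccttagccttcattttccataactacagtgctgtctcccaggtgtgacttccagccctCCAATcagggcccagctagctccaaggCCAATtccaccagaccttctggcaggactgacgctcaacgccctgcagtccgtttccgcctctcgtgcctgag
The window holds 4 CCAAT boxes, and 37.4% of 32851 RefSeq mouse promoter windows of this length hold at least 1.

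Noct is a clock-output gene, and the clock genes were uneven within the groups. Of the 21 clock genes listed, 3 were higher at the unadjusted threshold (Noct, Clock and Npas2) and 1 was lower (Bhlhe41), with a median of -0.08. Without hairpin-labelled 1, 6 were higher and 6 lower with a median of -0.42. Without hairpin-labelled 3, 1 was higher and 0 lower with a median of 0.11, without hairpin-labelled 6 the counts were 2 and 0, without young 1 they were 1 and 1, and without young 5 they were 3 and 0. Dbp, a transcription factor with one of the largest daily rhythms in liver, stood at 100.3, 32.4 and 90.2 CPM in young liver, at 0.581, 0.589 and 16.4 CPM in old control and at 53.5, 0.496 and 4.86 CPM in the hairpin-labelled libraries. Arntl, which encodes the clock activator BMAL1, stood at 3.25, 4.85 and 0.916 CPM in young liver and at 0.916, 28.7 and 8.26 CPM in the hairpin-labelled libraries. Hairpin-labelled library 1 thus had Dbp and Arntl within or near the young range and Noct at 157 CPM, while libraries 3 and 6 had low Dbp and high Arntl. Dbp and Arntl were picked after their values were seen. No source used here gives collection times, and their part in the Noct result was not tested.

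A pair of overlapping noncoding genes at the Tcf7l1 locus rose together. Gm15401 (chr6:72629288-72637717, plus strand), annotated as antisense to Tcf7l1, stood at 0.148, 0.255 and 0.305 CPM in young liver, at 5.29, 6.11 and 7.76 CPM in old control and at 3.05, 3.92 and 2.77 CPM in the hairpin-labelled libraries. The 3 groups did not overlap, with young lowest and old control highest. The log2 fold change against young was 3.74 ± 0.44 (adjusted p = 0.0142). Gm37969, an unverified transcript on the opposite strand of the same locus, stood at 0.0739, 0.192 and 0 CPM in young liver and at 1.71, 2.10 and 1.52 CPM in the hairpin-labelled libraries, a log2 fold change of 4.14 ± 0.64 (adjusted p = 0.0408). Since the strand setting of the counting is not given, reads of this pair and of Tcf7l1 cannot be told apart.

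The other genes that rose were low or share sequence with other genes. Dmrta1, a DM-domain transcription factor gene, stood at 0.813, 0.255 and 0.611 CPM in young liver and at 6.72, 4.96 and 4.02 CPM in the hairpin-labelled libraries, a log2 fold change of 3.22 ± 0.47 (adjusted p = 0.0287). The pseudogene Gtpbp4-ps1 stood at 4.29, 2.49 and 3.44 CPM in young liver and at 31.9, 19.5 and 63.3 CPM in the hairpin-labelled libraries, a log2 fold change of 3.49 ± 0.41 (adjusted p = 0.0142), and its reads may be shared with copies of near-identical sequence. Neither gene overlapped between the groups. The immunoglobulin kappa variable segment Igkv3-2 stood at 0.222, 0.192 and 0.153 CPM in young liver and at 5.86, 1.88 and 3.14 CPM in the hairpin-labelled libraries (log2 fold change 4.203 ± 0.65, adjusted p = 0.0408). The long noncoding RNA Gm40923 had 2 counts in all 3 young libraries and 139 in the hairpin-labelled ones, a ratio of 54.8 in counts per depth with a 95% exact interval of 14.9 to 457, which covers counting error only.

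Tceal8, an X-linked member of the transcription elongation factor A-like family, was the 1 gene that fell. It stood at 21.4, 22.99 and 21.5 CPM in young liver, at 7.67, 15.1 and 10.2 CPM in old control and at 6.66, 4.47 and 3.61 CPM in the hairpin-labelled libraries. The 3 groups did not overlap, and the hairpin-labelled libraries were lowest. Its log2 fold change against young was -2.16 ± 0.30 (adjusted p = 0.0287). Without the unnumbered library it was -2.13 (adjusted p = 0.0575).

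**Figure D2:**
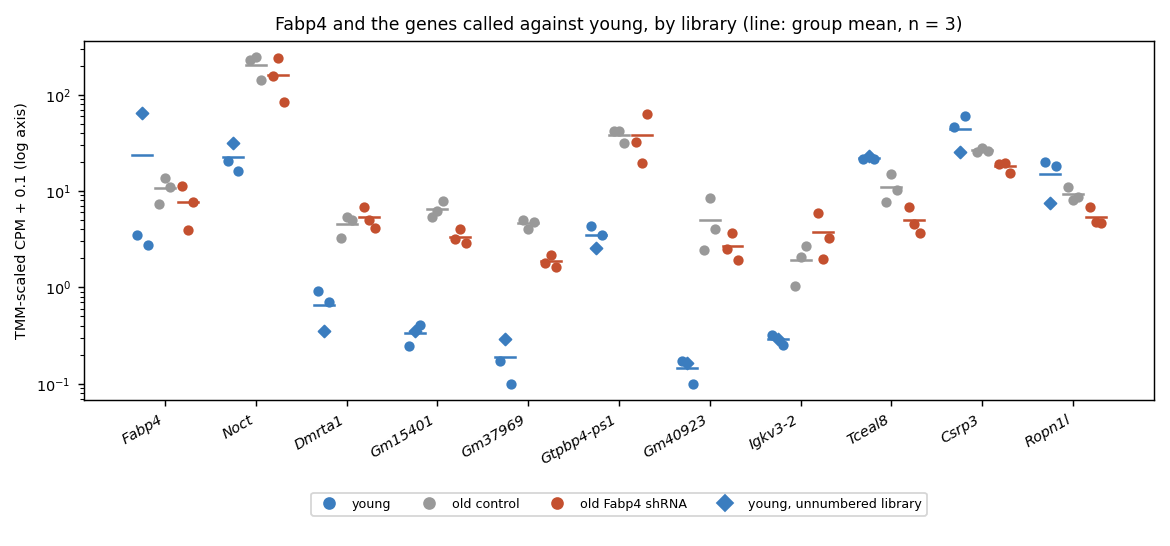
TMM-scaled CPM plus 0.1 on a log axis for Fabp4 and the 8 genes called against young, with 1 point per library and a line at each group mean (n = 3), the unnumbered young library being drawn with its own symbol. Csrp3 and Ropn1l, called in the fit without the unnumbered library and not in the fit to 9 libraries, are drawn as well. Noct stands between 16.1 and 31.2 CPM in young liver and between 84.3 and 239.7 CPM in the hairpin-labelled libraries, while the young points of Fabp4 span 2.67 to 64.8 CPM.

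Each call depended on which libraries entered the fit. Leaving out 1 library at a time gave between 0 calls (without young 1) and 37 calls (24 higher and 13 lower, without hairpin-labelled 1). Gm15401 was lost only without young 1, and Gtpbp4-ps1 only without young 1 or young 5. Noct was lost without young 1 or 5, any old control library or hairpin-labelled 3. Tceal8 and Gm40923 were lost without any young library, old control 5 or hairpin-labelled 3 or 6, and Gm37969 was kept only without the unnumbered library or hairpin-labelled 1. Dmrta1 and Igkv3-2 were called in 1 of these 9 fits, the one without hairpin-labelled library 1. Without the unnumbered library, Gm15401, Gm37969, Gtpbp4-ps1 and Noct stayed called. That fit added Csrp3, a muscle LIM protein gene, at 46.2, 25.5 and 59.7 CPM in young liver and 19.1, 19.6 and 15.4 CPM in the hairpin-labelled libraries (log2 fold change -1.55, adjusted p = 0.045). It also added Ropn1l, a gene of sperm flagella and cilia, at 19.7, 7.34 and 18.1 CPM in young liver and 6.72, 4.69 and 4.55 CPM in the hairpin-labelled libraries (-1.83, adjusted p = 0.045).

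The same genes were then set beside old control. These comparisons share libraries, so that each gene's values are given side by side with no test of their likeness. Against old control, edgeR called 0 genes (0%), while 458 genes (3.27%) stood higher and 488 (3.48%) lower by unadjusted p, and DESeq2 called 7 and limma-voom 0. For old control against young, 5 genes (0.0357%) were called. Noct differed from young by 2.83 in the hairpin-labelled libraries and by 3.19 in old control, and from old control by -0.36 (95% interval -1.16 to 0.44). Gtpbp4-ps1 gave 3.49 and 3.49, Dmrta1 3.22 and 2.99, Igkv3-2 4.203 and 3.22, and Gm40923 5.57 and 6.47. Gm37969 gave 4.14 and 5.49, with a difference of -1.35 from old control (interval -2.33 to -0.37, unadjusted p = 0.011, adjusted p = 0.728). Gm15401 gave 3.74 and 4.71, with a difference of -0.97 from old control (interval -1.71 to -0.23, unadjusted p = 0.0139, adjusted p = 0.728). Tceal8 gave -2.16 and -1.0, with a difference of -1.16 (interval -1.81 to -0.52, unadjusted p = 0.00187, adjusted p = 0.728), on the side away from young. Thus no called gene was shown to differ between the 2 old groups after adjustment.

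The genes next in order of p, which did not pass the adjusted threshold, included enzymes, a transporter and protease inhibitors. Slc39a4, a zinc importer, stood at 63.7, 45.7 and 46.0 CPM in young liver and at 10.0, 20.4 and 19.1 CPM in the hairpin-labelled libraries, with no overlap (log2 fold change -1.65 ± 0.27, adjusted p = 0.0679). The estimates were -1.24 for the epoxygenase Cyp2c23, -1.29 for the microsomal glutathione transferase Mgst3, -1.01 for Keg1 and -2.67 for Fam81a. Cib3, a calcium-binding protein gene, stood at 3.92, 10.9 and 11.8 CPM in young liver, 10.6, 3.97 and 14.1 CPM in old control and 0.672, 1.32 and 0.627 CPM in the hairpin-labelled libraries. Both other groups lay above the hairpin-labelled one, with differences of -3.33 from young (adjusted p = 0.115) and -3.44 from old control (adjusted p = 0.427). A2ml1, a protease inhibitor of the alpha-2-macroglobulin family, stood at 25.9, 23.2 and 26.1 CPM in young liver, 27.1, 28.3 and 31.1 CPM in old control and 14.8, 9.21 and 7.99 CPM in the hairpin-labelled libraries, again below both groups (-1.23 and -1.43, adjusted p = 0.149 and 0.427). On the higher side, the protease inhibitor Serpine2 stood at 6.36, 10.3 and 7.94 CPM in young liver and at 15.5, 26.04 and 30.9 CPM in the hairpin-labelled libraries (1.56 ± 0.28, adjusted p = 0.119). Cyp26b1, which breaks down retinoic acid, had an estimate of 1.48 ± 0.28 (adjusted p = 0.149).

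In the fit to the 9 count columns, no member of the 48 gene lists apart from Noct passed the adjusted threshold. With reads recovered from the FPKM values of the unnumbered library, Nsdhl (adjusted p = 0.0268), Hba-a1 (0.0325), mt-Nd3 (0.0353), Otc (0.0357), Mup21 (0.0357), Keg1 (0.0357), Cyp2c23 (0.0393) and Cd163 (0.0425) were among the members called lower, and Lpin2 (0.0447) and Atf3 (0.0475) were called higher. Atf3 was picked after its values were seen. Lists are described by their members at an unadjusted p under 0.05, to be read against 4.43% higher and 4.5% lower over all genes. With 1 library left out these shares moved as well. They were 2.56% higher and 2.64% lower without young 1, 3.08% and 3.96% without young 5, 7.57% and 7.48% without hairpin-labelled 1, 2.43% and 2.61% without hairpin-labelled 3 and 3.92% and 3.36% without hairpin-labelled 6. Without any 1 old control library they ran from 4.15% to 4.2% higher and from 3.83% to 4.36% lower. Counts of list members without a library are to be read against these shares. The plot of list medians gives all lists with at least 3 tested members.

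**Figure D3:**
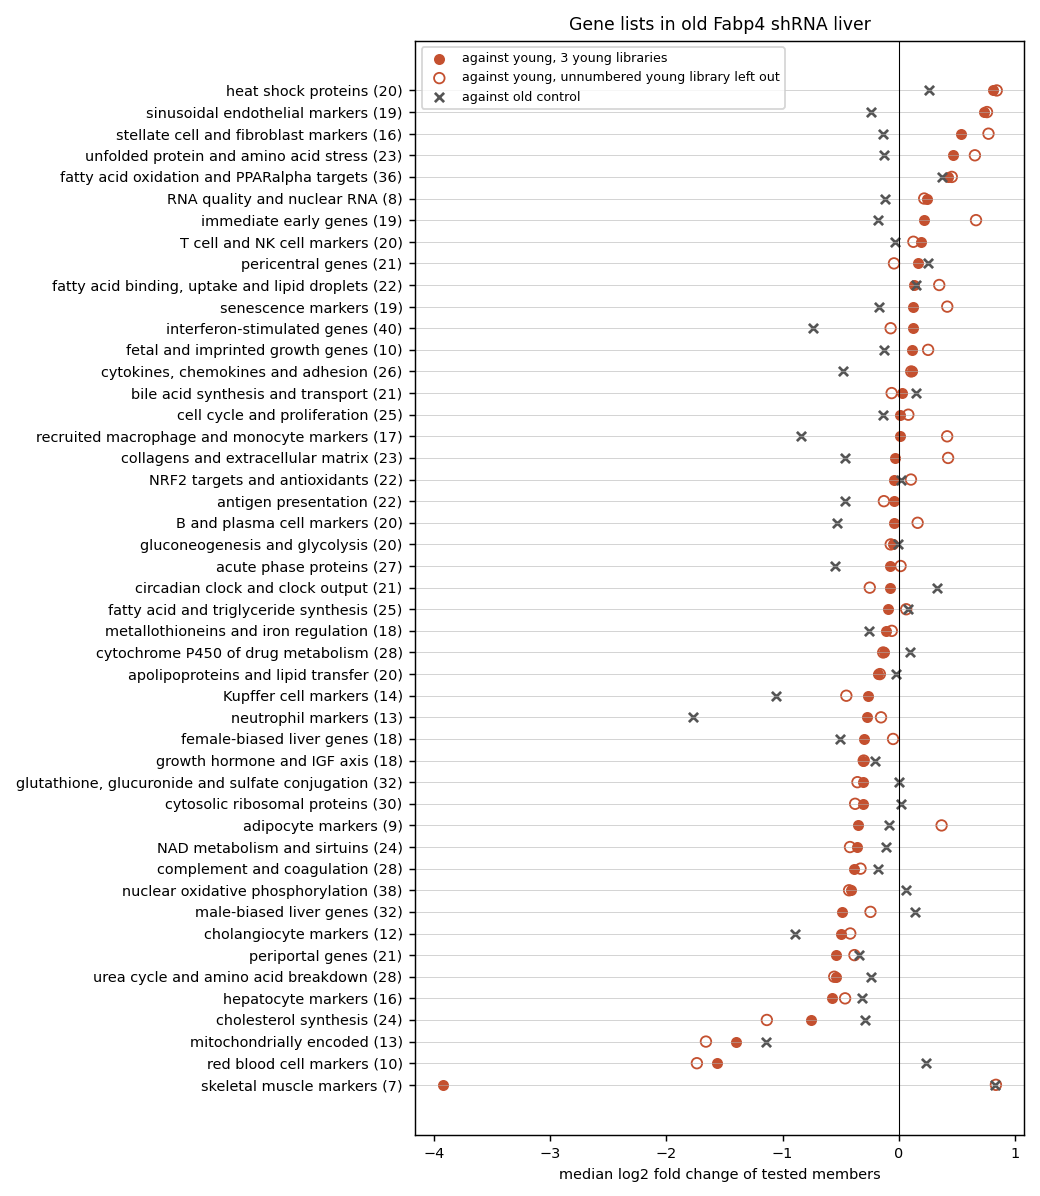
Median log2 fold change over the tested members of each gene list (number tested in parentheses) for hairpin-labelled liver against young with 3 young libraries, without the unnumbered young library, and against old control. Red blood cell, mitochondrially encoded and cholesterol synthesis genes have the lowest medians against young apart from skeletal muscle markers, whose median moves from -3.92 to 0.84 when the unnumbered library is left out.

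Genes of cholesterol synthesis leaned lower than in young liver. Of 24 tested members, 12 were lower and 1 was higher at the unadjusted threshold, with a median of -0.76, and 20 of the 24 estimates were below 0. Nsdhl, which removes a methyl group from sterol intermediates, stood at 35.1, 12.1 and 19.2 CPM in young liver, at 27.3, 19.2 and 18.6 CPM in old control and at 10.8, 8.72 and 9.195 CPM in the hairpin-labelled libraries. These lay below all 6 others, with a log2 fold change against young of -1.21 ± 0.34 (unadjusted p = 0.0035) and against old control of -1.18 (unadjusted p = 0.00403). Sqle, squalene epoxidase, stood at 50.3, 13.4 and 25.3 CPM in young liver, at 35.3, 28.0 and 23.8 CPM in old control and at 12.2, 8.66 and 13.01 CPM in the hairpin-labelled libraries, again without overlap (-1.39 ± 0.40, unadjusted p = 0.00477). Lss, lanosterol synthase, stood at 39.3, 15.5 and 32.8 CPM in young liver, at 17.3, 17.4 and 18.1 CPM in old control and at 17.3, 12.5 and 10.9 CPM in the hairpin-labelled libraries, where library 1 overlapped the unnumbered young library (-1.10 ± 0.31). Dhcr7, a reductase late in the pathway, had -1.06 ± 0.34. The unnumbered young library was low for Nsdhl, Sqle and Lss. Without it 17 members were lower and the median was -1.14. Without young 1, 3 were lower and the median was -0.36, and without either young 5 or hairpin-labelled 6, 8 were lower. Against old control the list's median was -0.29, with 4 members lower, and for old control against young it was -0.35.

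Promoters of this pathway are shown for Nsdhl and Lss, described above, and for Hmgcs1, the gene of the first committed step, which was picked after its values were seen (293, 49.8 and 178 CPM in young liver and 97.6, 125 and 107.5 CPM in the hairpin-labelled libraries). Genes of this pathway are known to be driven by SREBP2 together with the CCAAT-binding factor NF-Y. The windows are RefSeq sequence of GRCm38.p6 from 250 bases before to 50 after the start, and capitals mark CCAAT boxes on either strand and, in Hmgcs1, the sterol element TCACNCCAC:
Nsdhl, chrX:72918271-72918570, plus strand: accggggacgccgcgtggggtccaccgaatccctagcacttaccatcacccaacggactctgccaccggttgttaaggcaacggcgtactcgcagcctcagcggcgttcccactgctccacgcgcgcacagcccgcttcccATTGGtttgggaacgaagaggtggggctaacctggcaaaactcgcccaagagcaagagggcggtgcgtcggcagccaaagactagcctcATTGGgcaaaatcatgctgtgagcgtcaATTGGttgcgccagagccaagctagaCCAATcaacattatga
Lss, chr10:76531355-76531654, plus strand: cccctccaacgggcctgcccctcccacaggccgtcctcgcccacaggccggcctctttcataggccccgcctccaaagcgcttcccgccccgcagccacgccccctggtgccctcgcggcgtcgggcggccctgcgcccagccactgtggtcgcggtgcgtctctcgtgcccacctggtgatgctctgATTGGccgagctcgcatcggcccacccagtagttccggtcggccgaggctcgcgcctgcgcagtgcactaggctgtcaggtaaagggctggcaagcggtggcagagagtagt
Hmgcs1, chr13:119690101-119690400, plus strand: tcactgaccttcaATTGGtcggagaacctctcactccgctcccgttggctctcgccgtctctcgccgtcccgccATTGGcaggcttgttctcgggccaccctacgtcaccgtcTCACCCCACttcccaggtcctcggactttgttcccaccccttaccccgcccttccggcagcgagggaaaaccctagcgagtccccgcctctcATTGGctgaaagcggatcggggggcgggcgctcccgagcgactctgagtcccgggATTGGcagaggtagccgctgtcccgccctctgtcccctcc
Nsdhl has 4 CCAAT boxes, Lss 1 and Hmgcs1 4. Of the 24 listed genes, 16 matched a RefSeq window, and 16 of these 16 held a CCAAT box, against 41.1% of 27025 genes. The sterol element was in 1 of the 16, Hmgcs1, and in 1.44% of all genes. These matches are letters in a window, and no enrichment was tested.

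Fatty acid oxidation genes and other targets of the nuclear receptor PPARα leaned to the higher side. Of 36 members, 33 had estimates above 0, 5 were higher and 1 was lower at the unadjusted threshold, and the median was 0.42. In 9 members every hairpin-labelled library was above every young one. Acot1, a cytosolic acyl-CoA thioesterase, stood at 31.9, 112 and 120.4 CPM in young liver, at 65.7, 231 and 133 CPM in old control and at 279.6, 461 and 485 CPM in the hairpin-labelled libraries, above both other groups (2.21 ± 0.56, unadjusted p = 0.00261). Acaa1b, a peroxisomal thiolase, stood at 503, 998 and 1044 CPM in young liver and at 1337, 1953 and 1724 CPM in the hairpin-labelled libraries, without overlap (0.98 ± 0.31, unadjusted p = 0.00736). Acot4, a peroxisomal thioesterase, had 1.01 ± 0.28. Ppara itself had 1.27 ± 0.42, with 33.8, 107 and 32.7 CPM in the hairpin-labelled libraries against 20.5, 28.5 and 23.1 CPM in young liver, so that library 3 carried much of its estimate. Ppargc1a, a coactivator of mitochondrial genes, was the member on the lower side (-0.78 ± 0.32). Against old control the list's median was 0.37, with 8 members higher and 1 lower, and for old control against young it was 0.07. Without the unnumbered young library 14 members were higher, and 10 were without hairpin-labelled 1. Without old control 1 or 2 the number was 8, and without hairpin-labelled 3 the number was 3.

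Lipid droplet and fatty acid uptake genes were mixed. Of 22 members, 3 were higher and 1 was lower, with a median of 0.13. G0s2, an inhibitor of triglyceride lipase, stood at 49.6, 183 and 196 CPM in young liver, at 447, 584 and 598 CPM in old control and at 335, 615 and 521 CPM in the hairpin-labelled libraries. Both old groups were above young without overlap (1.78 ± 0.44 for the hairpin-labelled group, unadjusted p = 0.00173). Cidea, a lipid droplet fusion protein gene, ran from 0.0763 to 0.319 CPM in young liver and stood at 4.76, 12.4 and 0.0523 CPM in the hairpin-labelled libraries, so that library 6 was at or below the young level. The lipase gene Lpl had -2.65 ± 0.97. Without the unnumbered library, 7 members were higher, and without young 1, young 5 or hairpin-labelled 3 the number was 1. Of 25 genes of fatty acid and triglyceride synthesis, 2 were higher, among them Lpin2 (0.64), and 3 were lower, among them Lpin1 (-0.99) and Elovl6 (-0.71), with a median of -0.09. The counts were 5 higher and 4 lower without the unnumbered library and 4 and 5 without hairpin-labelled 1. The number lower was 0 without young 1, hairpin-labelled 3 or hairpin-labelled 6, and without young 5 it was 1, with 0 higher.

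Transcripts of the mitochondrial genome leaned lower. The 13 estimates were all below 0, 8 were lower at the unadjusted threshold, and the median was -1.403. mt-Nd3, a complex I subunit, stood at 64.0, 34.4 and 37.7 CPM in young liver, at 17.7, 40.3 and 40.6 CPM in old control and at 11.4, 10.4 and 17.2 CPM in the hairpin-labelled libraries, below both other groups (-1.80 ± 0.36, unadjusted p = 0.000289, adjusted p = 0.162). mt-Cytb, of complex III, stood at 33090, 14320 and 25030 CPM in young liver and at 12980, 7765 and 7720 CPM in the hairpin-labelled libraries, without overlap (-1.35 ± 0.45). Against old control the median was -1.14, with 5 members lower, though old control library 1 was as low as the hairpin-labelled group for mt-Cytb at 9147 CPM. The members share 1 genome and their transcripts, so that they do not count as separate evidence. The number lower was 3 without young 1 or without hairpin-labelled 3, 4 without hairpin-labelled 6 and 5 without young 5.

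Nuclear genes of oxidative phosphorylation also leaned lower, by less. Of 38 members, 35 had estimates below 0, 13 were lower and 0 higher at the unadjusted threshold in edgeR, and the median was -0.41. In 17 of them every hairpin-labelled library lay below every young one. Sdhb, the iron-sulfur subunit of complex II, stood at 341, 239 and 271 CPM in young liver, at 171, 193 and 179 CPM in old control and at 182, 130.5 and 154 CPM in the hairpin-labelled libraries. Both old groups lay below young and overlapped each other (-0.87 ± 0.22, unadjusted p = 0.0017). Cox6b1 of complex IV had -0.76 ± 0.23, and the complex I subunits Ndufs8 and Ndufc2 had -0.72 ± 0.24 and -0.63 ± 0.21. The list's median was 0.06 against old control and -0.47 for old control against young. The number lower was 6 without young 1 and 7 without hairpin-labelled 3.

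**Figure D4:**
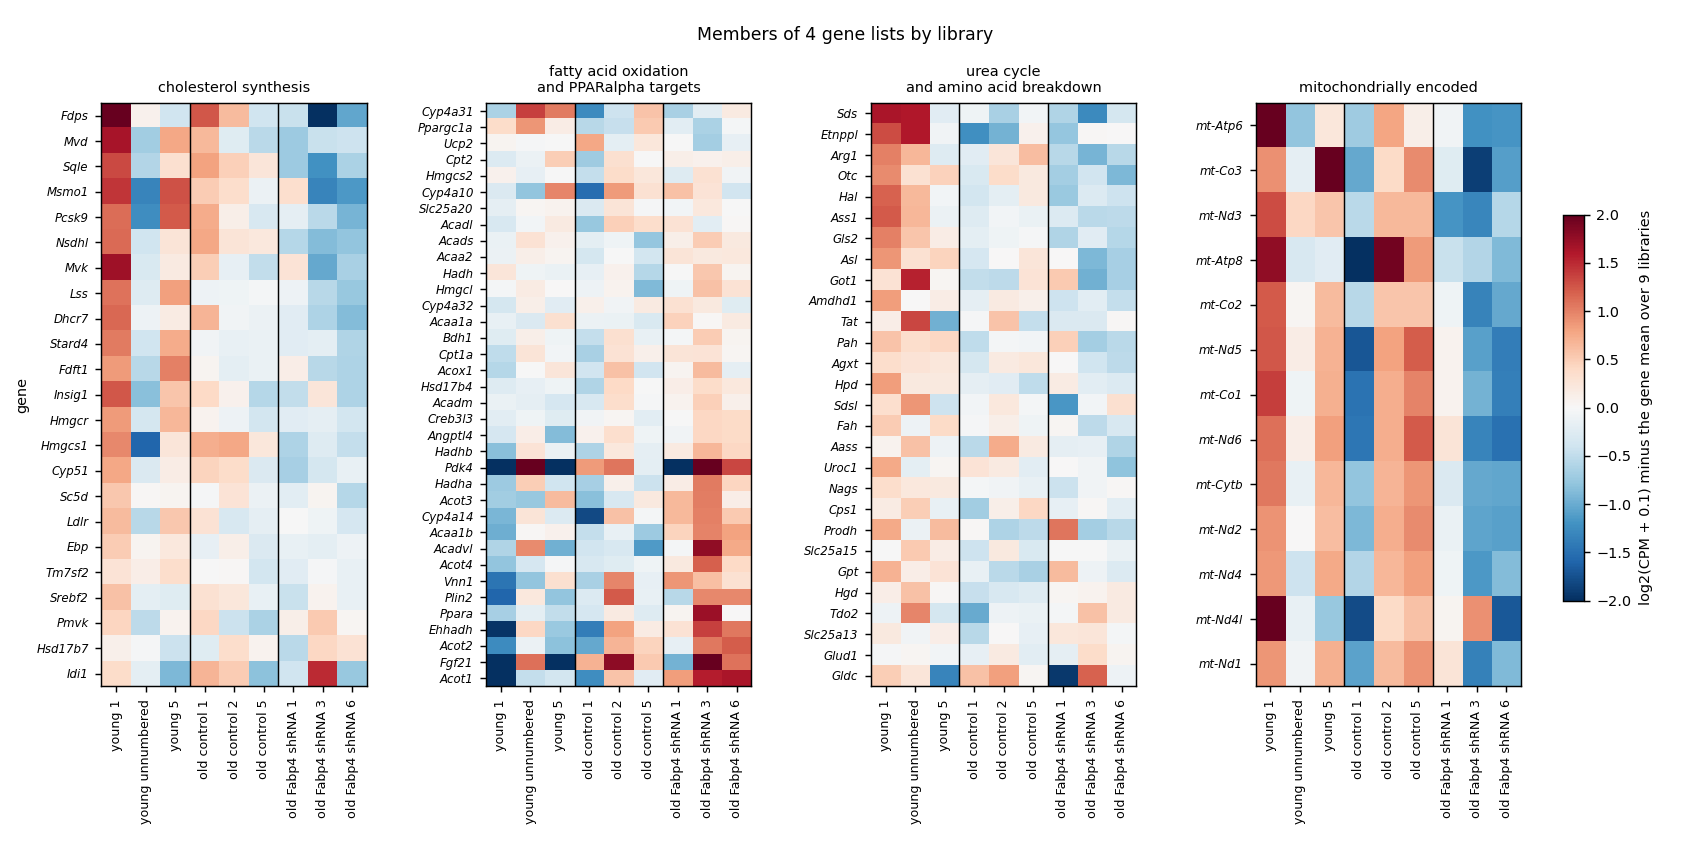
Each cell is log2(CPM + 0.1) of a gene in a library minus that gene's mean over the 9 libraries, for cholesterol synthesis, fatty acid oxidation and PPARα targets, urea cycle and amino acid breakdown, and mitochondrially encoded genes, with the members drawn ordered by their fold change against young. Young 1 is high for most cholesterol genes, and mitochondrially encoded genes are lowest in hairpin-labelled libraries 3 and 6 and in old control 1.

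Enzymes that break down amino acids, with those of the urea cycle, leaned lower. Of 28 members, 25 had estimates below 0, 11 were lower at the unadjusted threshold, 12 lay wholly below young, and the median was -0.54. Otc, the mitochondrial enzyme that makes citrulline, stood at 672, 432 and 481 CPM in young liver, at 282, 448 and 400.5 CPM in old control and at 217, 268 and 187 CPM in the hairpin-labelled libraries, below all 6 others (-1.24 ± 0.26, unadjusted p = 0.000465, adjusted p = 0.226). Gls2, the liver glutaminase, stood at 631, 460 and 345 CPM in young liver and at 206, 267 and 211 CPM in the hairpin-labelled libraries, without overlap (-1.07 ± 0.25). Sds, serine dehydratase, had -1.92 ± 0.44, Hal, which starts histidine breakdown, -1.14 ± 0.31, and Arg1, the last enzyme of the urea cycle, -1.24 ± 0.34. Against old control the median was -0.24, with 2 members lower, and for old control against young it was -0.43. Of 21 periportal genes, a list that shares Gls2, Sds, Hal, Arg1 and Ass1 with this one, 9 were lower, with a median of -0.54. Pericentral genes had a median of 0.17, and 3 of 21 passed on the higher side, namely Aldh3a2, a fatty aldehyde dehydrogenase (1.49 ± 0.32), and the Wnt target Axin2 and the transcription factor Tbx3 (1.03 and 0.59). Without young 5, 6 pericentral genes were higher, and without the unnumbered library 2 were higher and 2 lower.

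Hepatocyte markers, complement and coagulation genes and apolipoproteins leaned lower, while acute phase genes had a median of -0.07 with 1 of 27 lower. Of 16 hepatocyte markers 6 were lower, with a median of -0.57, among them the urea cycle enzyme Ass1 (-1.13), fetuin-A (Ahsg, -0.89), Serpina1c (-0.82) and Apoa1 (-0.72). That count was 1 without young 1 and 3 without hairpin-labelled 3. Of 28 complement and coagulation genes 6 were lower, with a median of -0.39, led by factor XI (F11), which stood at 57.2, 44.8 and 42.8 CPM in young liver and at 33.5, 18.8 and 19.3 CPM in the hairpin-labelled libraries, without overlap (-1.02 ± 0.27). Kininogen 1 (Kng1), C9 and Mbl2 had -0.82, -1.29 and -0.73. Apolipoproteins gave 4 lower of 20, namely Apoa1, Apoc4 (-0.65), Apoc3 (-0.72) and Apoc1 (-0.67). Without young 1 or hairpin-labelled 3 that count was 0, and it was 2 without young 5, hairpin-labelled 6 or old control 2 or 5. Cytosolic ribosomal protein genes gave 1 lower of 30, Rps18 (-0.63), with 26 estimates below 0 and a median of -0.31. Without hairpin-labelled 6, 7 were lower, and without the unnumbered library or hairpin-labelled 1, 2 were. The number was 0 without young 1, young 5, old control 2, old control 5 or hairpin-labelled 3, with a median of -0.13 in the last.

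Sex-biased liver genes stood on both sides. Of 32 male-biased genes, 6 were higher and 8 were lower, with a median of -0.49. Hsd3b5, a steroid reductase of male liver, stood at 28.9, 27.5 and 28.7 CPM in young liver, at 10.8, 1.398 and 6.63 CPM in old control and at 7.75, 5.02 and 5.02 CPM in the hairpin-labelled libraries, so that both old groups lay below young (-2.26 ± 0.53, unadjusted p = 0.00143). Mup21, a major urinary protein gene, had -1.99 ± 0.39, and Mup1 had 2.51 ± 0.54. Major urinary protein genes are near-identical copies, and reads could be split among them in different ways. Without hairpin-labelled 3 or 6, 3 members were higher, and without hairpin-labelled 3, 5 were lower. With reads recovered from the FPKM values of the unnumbered column, 0 male-biased members were higher in edgeR at the unadjusted threshold and 13 were lower. Over all genes tested in that fit, 9.75% were higher and 7.43% lower at this threshold. Of 18 female-biased genes, 1 was higher, Sult1e1 (1.90), and 2 were lower, among them Cux2 (-3.09). The number lower was 5 without hairpin-labelled 1 and 4 without hairpin-labelled 3. In the growth hormone axis, 3 of 18 were lower: Cux2, Lepr (-3.06) and Egfr (-0.66). Without the unnumbered library 1 of these genes was lower and 1 was higher. The number lower was also 1 without hairpin-labelled 1, hairpin-labelled 3 or old control 2.

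Of 28 cytochrome P450 genes, Cyp2c29 was higher, at 105, 309 and 275 CPM in young liver and at 476, 501 and 473 CPM in the hairpin-labelled libraries (1.07 ± 0.36), and Cyp2c23 and Cyp2a12 (-0.59) were lower. Of 32 conjugation genes 4 were lower, led by the glutathione transferase Gstp1 (-1.002), with 25 estimates below 0 and a median of -0.31. That count was 0 without young 1, 1 without hairpin-labelled 3 or 6, 2 without old control 2 or 5 and 9 without hairpin-labelled 1. Genes of NAD metabolism leaned lower: of 24, 18 had estimates below 0, 6 were lower and 1 was higher, with a median of -0.36. The lower ones included Acmsd, which diverts tryptophan breakdown from NAD (-1.27 ± 0.33), the nicotinamide methyltransferase Nnmt (-0.89 ± 0.27), Qprt (-0.61) and Nmnat1 (-0.57). The number lower was 2 without hairpin-labelled 3, 3 without young 1 or without hairpin-labelled 6 and 10 without hairpin-labelled 1. Mt2, a metal-binding metallothionein, stood at 12.4, 5.36 and 4.43 CPM in young liver and at 1.95, 0.496 and 0.836 CPM in the hairpin-labelled libraries (-2.76 ± 0.66, unadjusted p = 0.00125). It was 1 of 2 lower members among 18 genes of metallothioneins and iron regulation, whose median was -0.11. Without hairpin-labelled 1, 4 of these were lower and 1 was higher.

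Red blood cell transcripts leaned lower in both old groups. Of 10 tested members 7 were lower, 7 lay wholly below young, and the median was -1.56, and -1.74 without the unnumbered library. The beta-globin Hbb-bt stood at 58.5, 49.5 and 47.2 CPM in young liver, at 10.4, 12.4 and 8.21 CPM in old control and at 7.02, 10.9 and 27.9 CPM in the hairpin-labelled libraries (-1.76 ± 0.42, unadjusted p = 0.00139). Hba-a1 and Hbb-bs had -1.79 ± 0.45 and -1.43 ± 0.38, and the anion exchanger Slc4a1 -3.03 ± 0.81. Globin genes have near-identical copies, so the split among them is uncertain. The list's median was 0.24 against old control and -1.64 for old control against young. The summed level was 691 to 1205 CPM in young liver and 327 to 518 CPM in the hairpin-labelled libraries. Blood left in the tissue was not measured and its part was not tested.

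Sinusoidal endothelial markers leaned higher. Of 19 tested members, 18 had estimates above 0, 9 were higher with 9 wholly above young, and the median was 0.74. Oit3 stood at 6.65, 5.24 and 5.496 CPM in young liver, at 15.6, 8.32 and 17.2 CPM in old control and at 20.9, 10.3 and 10.5 CPM in the hairpin-labelled libraries, both old groups being above young (1.26 ± 0.35, unadjusted p = 0.00315). The Wnt amplifier Rspo3 had 1.34 ± 0.41, the iron-regulating ligand Bmp2 1.07 ± 0.33 and the lectin Clec4g 1.08 ± 0.35. The list's median was -0.24 against old control and 0.79 for old control against young. Without hairpin-labelled 1, 3 members were higher.

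Stellate cell and fibroblast markers gave 6 higher of 16, with a median of 0.53. The matrix proteoglycan decorin (Dcn) stood at 79.8, 92.4 and 69.8 CPM in young liver, at 122, 159 and 242 CPM in old control and at 178, 134 and 129.5 CPM in the hairpin-labelled libraries, without overlap with young (0.87 ± 0.27, unadjusted p = 0.00637). Pdgfra, Hgf and the retinol-storing enzyme Lrat had 0.94, 1.22 and 0.72. Of 23 collagen and matrix genes 3 were higher, the proteoglycan Bgn (0.84 ± 0.26), Col14a1 (0.62) and Col6a3 (0.81), with a median of -0.03. Without the unnumbered library that median was 0.42, with 20 of 23 estimates above 0, and with recovered reads it was 0.40. The number of stellate members higher was 3 without young 5 or without hairpin-labelled 3, and for matrix genes it was 6 without the unnumbered library and 1 without young 1, young 5 or hairpin-labelled 3.

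Resident and recruited immune cell markers gave at most 2 members of a list on either side at the unadjusted threshold. Of 14 Kupffer cell markers 2 were lower, the scavenger receptor Cd163 and the phosphatidylserine receptor Timd4 (-1.29 ± 0.41 and -1.17 ± 0.52), with a median of -0.26. Recruited macrophage markers gave 1 higher, Ly6c2 (1.19), and 1 lower of 17, with a median of 0.01. That median was 0.42 without the unnumbered library and 0.525 with recovered reads. The lower member was Spp1, osteopontin, at 51.7, 47.7 and 47.9 CPM in young liver, 50.3, 66.5 and 142 CPM in old control and 17.7, 23.7 and 34.2 CPM in the hairpin-labelled libraries, below both groups (-0.96 ± 0.35 against young and -1.77 against old control, adjusted p = 0.484 and 0.728). Spp1 is also on the list of cholangiocyte markers. Of 12 tested cholangiocyte markers 2 were lower and 9 had estimates below 0, with a median of -0.498. The number of these lower was 0 without hairpin-labelled 1 and 1 without hairpin-labelled 3. Of 13 neutrophil markers 2 were lower than in young liver, Ngp and Camp. That count was 5 without hairpin-labelled 6, 1 without hairpin-labelled 1 or 3 or old control 1 or 2, and 0 without the unnumbered library. The list's median was -0.28 against young, 0.17 with recovered reads, -1.77 against old control and 1.41 for old control against young. Their summed level was 82.4 to 116 CPM in young liver, 189.7 to 1067 CPM in old control and 87.6 to 285 CPM in the hairpin-labelled libraries, and Ngp, a neutrophil granule protein gene, was at 0.370, 3.32 and 0.840 CPM in young liver and at 0.122, 0.0552 and 0.366 CPM in the hairpin-labelled libraries, near or below the floor of detection in the latter. Of 20 T cell and NK cell markers, edgeR found 0 at the unadjusted threshold, with a median of 0.19.

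Of 20 B cell and plasma cell markers, 2 were higher and 1 was lower, beside the called Igkv3-2. Ighm, the heavy chain of IgM, stood at 14.6, 8.94 and 6.56 CPM in young liver, at 33.8, 33.9 and 117 CPM in old control and at 125.5, 43.7 and 53.2 CPM in the hairpin-labelled libraries, above young without overlap (2.88 ± 0.63, unadjusted p = 0.00124). The secretory-pathway gene Derl3 had 2.93 ± 0.75, while Ighg1 had -1.09 ± 0.45, and the median over 20 members was -0.04. Without hairpin-labelled 3, 5 were higher and 0 lower, without hairpin-labelled 1, 2 were higher and 4 lower, and without old control 5, 4 were higher. The summed level of the list was 298 to 373 CPM in young liver and 394 to 473 CPM in the hairpin-labelled libraries. The highest estimate on the list of unfolded protein and amino acid stress genes was the same, 2.929, so that Derl3 appears to stand on that list too. Of 23 genes on that list 1 was higher and 1 was lower, 18 had estimates above 0, and the median was 0.47. Without hairpin-labelled 1, 8 of them were higher.

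**Figure D5:**
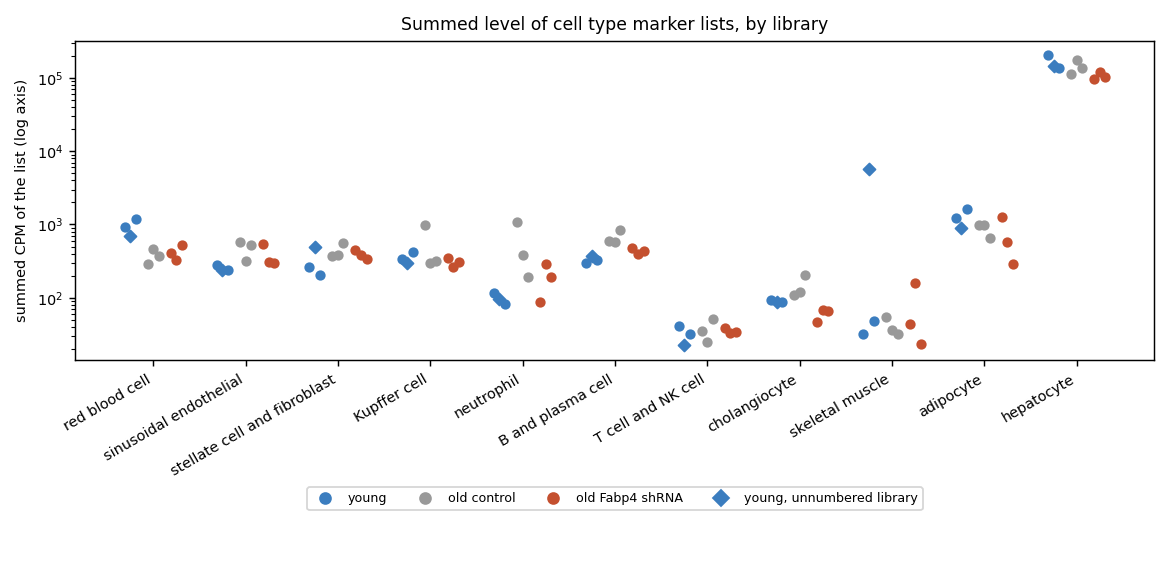
Summed CPM of each cell type marker list on a log axis, 1 point per library, in blue for young (a diamond for the unnumbered library), grey for old control and red for hairpin-labelled liver. Red blood cell sums are 691 CPM or more in young liver and 518 CPM or less in the hairpin-labelled libraries, and the skeletal muscle sum of 5644 CPM in the unnumbered young library is above 23.3 to 156.7 CPM in the others.

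Interferon-stimulated genes gave 1 member past the unadjusted threshold, and senescence markers gave 5 of 19 on the higher side. Cytokine, chemokine and adhesion genes gave 3 higher and 1 lower of 26 tested, with a median of 0.11. The number of these higher was 1 without hairpin-labelled 6. Of 40 interferon-stimulated genes 1 was higher, Ifi27, at 82.1, 97.6 and 109 CPM in young liver and at 268, 162 and 313 CPM in the hairpin-labelled libraries (1.36 ± 0.38, unadjusted p = 0.00404). The list's median was 0.12 against young, -0.74 against old control and 0.79 for old control against young. The chemokine Ccl9 stood at 75.0, 50.4 and 69.7 CPM in young liver and at 41.5, 23.3 and 21.8 CPM in the hairpin-labelled libraries, without overlap (-1.17 ± 0.27, unadjusted p = 0.000811). Ccl2, which draws monocytes, stood at 0.222, 0.192 and 0.153 CPM in young liver, at 5.17, 1.32 and 1.01 CPM in old control and at 0.549, 0.827 and 1.41 CPM in the hairpin-labelled libraries (2.26 ± 0.79). The higher senescence markers included Ccl2, the p53 regulator Mdm2 (0.56), Igfbp7 (0.60) and Mmp12 (2.73), and 1 marker was lower, with a median of 0.13. The number higher was 0 without hairpin-labelled 6, 1 without hairpin-labelled 3 and 2 without young 1 or young 5. Cdkn2a, the gene of p16 and p19ARF and picked after its values were seen, stood at 0.222, 0.128 and 0 CPM in young liver and at 0.427, 0.607 and 0.627 CPM in the hairpin-labelled libraries, close to the floor of detection.

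Genes that respond quickly to stress and handling were partly higher. Of 20 heat shock genes 5 passed on the higher side, and the list's median was 0.82. Hspb1, a small heat shock protein gene, stood at 24.5, 36.8 and 49.1 CPM in young liver and at 42.3, 85.2 and 273 CPM in the hairpin-labelled libraries, where library 1 overlapped young (1.86 ± 0.60, unadjusted p = 0.0126). The cochaperone genes Dnaja1 and Chordc1 had 0.84 and 0.99, and the chaperone Hsp90aa1 1.38. The number higher was 1 without young 1, 2 without hairpin-labelled 3 or 6, 3 without young 5 or the unnumbered library and 12 without hairpin-labelled 1. Of 19 immediate early genes 4 passed on the higher side, Fos (1.74), Nr4a1 (1.75), Gadd45b (1.87) and Dusp1 (1.27), with a median of 0.21. That count was 1 without young 1, young 5, hairpin-labelled 3 or hairpin-labelled 6, 7 without hairpin-labelled 1 and 8 without the unnumbered library. Handling before death was not recorded in the labels beyond anaesthesia and its part was not tested.

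Several groups had medians near 0. In edgeR, 0 of 21 bile acid genes, 0 of 22 NRF2 target genes, 0 of 22 antigen presentation genes and 0 of 10 fetal growth genes passed the unadjusted threshold, with medians of 0.03, -0.04, -0.04 and 0.12. Without the unnumbered library, 2 bile acid genes were higher and 2 were lower. Among 25 cell cycle genes Birc5 was lower (-1.52), and among 20 genes of gluconeogenesis and glycolysis 1 was higher and 1, Ppargc1a, was lower. Without the unnumbered library 3 of these were higher and 2 were lower. The acute phase gene on the lower side was the hepcidin gene Hamp2 (-2.99 ± 0.94). A p that misses the threshold does not show that these genes were at the young level.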

How the data were processed

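Liver RNA of 9 mice was sequenced. The submitters' processing notes name HISAT2 as aligner and GRCm38.p6 as build. How reads were counted, with which strand setting, annotation and gene lengths, is not given in the sources used here. Counts as deposited are whole reads per Ensembl gene for 54532 genes, unscaled. The deposited FPKM table holds the authors' length- and depth-scaled values for the same columns, and 0 columns matched no sample or group. The ratio of FPKM to count was fixed (tolerance 0.001, 10483 genes with at least 20 counts) for 100% of genes in 8 columns and for 0.229% in the unnumbered young column. That column was placed by its letter only, since its number is on no young label. Its FPKM were scaled back to whole reads, 100% of 16982 values being whole within 0.05 reads, with 226 genes not recovered.

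Genes were filtered with filterByExpr, scaled by TMM (factors 0.825 to 1.15) and tested with edgeR 4.0.16 in R 4.3.3, by a robust quasi-likelihood fit with 1 mean per group over 9 libraries (6 residual degrees of freedom, biological coefficient of variation 0.320). Genes were called below 0.05 after Benjamini-Hochberg adjustment over the whole table, all p-values are two-sided, and errors are standard errors of log2 fold changes. Without the unnumbered library the whole table was refitted. Alternatives were other scalings and filters, DESeq2 1.42.0, limma-voom and limma-trend (limma 3.58.1, on log2 FPKM plus 1 or 0.1), fits to the compared libraries alone, and leaving out each library. Positions and overlaps came from GENCODE release 21, promoters from RefSeq. The pipeline was tested on simulated data.

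The comparison and the 48 lists (1110 of 1112 members found) were chosen with earlier results of these data known. The text names Fabp4, called genes, the 10 smallest p in each direction, and up to 4 members per list with the smallest unadjusted p under 0.05; exceptions are pointed out. A few genes that this rule names are not reported here, though list counts include them.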

Additional observations from a re-analysis of the deposited data

How the results depend on the processing

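The count of called genes against young depended on the tool and on the libraries. It was 8 in the fit reported (7 higher and 1 lower), 62 with reads recovered from the FPKM column (33 and 29), 94 with no filter on counts (46 and 48), 124 with DESeq2 (51 and 73) and 277 with DESeq2 without the unnumbered young library (134 and 143). It was 53 (21 and 32) and 77 (37 and 40) with limma-trend on log2 FPKM plus 1 and plus 0.1, and 0 with limma-voom (with 548 genes higher and 643 lower by unadjusted p). It was also 0 when only the 6 libraries compared entered (503 and 508), and 0 in that fit without the unnumbered library (859 and 682). Leaving out 1 library gave 0 to 37 calls. Other scalings gave 8 or 9 calls and the stricter filter gave 8. With no scaling beyond library size the median over all genes moved to 0.31, with 1935 higher and 172 lower at the unadjusted threshold, and fold changes then stand relative to that shift. Against old control, the 8 genes called against young gave 0 calls under every alternative run.

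The Fabp4 difference from young turned positive without the unnumbered young library (1.30 in edgeR, 1.29 in DESeq2, 1.30 with only the compared libraries), with recovered reads (1.38) and on log2 FPKM plus 1 or 0.1 (0.64 and 1.14); the cause is the unnumbered count column, in which the gene is at 64.8 CPM. The muscle gene Casq1 turned from -3.92 to 0.0826 with recovered reads and to 0.0143 and 0.0277 on log2 FPKM plus 1 and plus 0.1. Of 2974 other values of 136 named genes under alternatives, 2717 kept direction and side of the threshold, 71 lost their call, 183 gained one and 3, those of Casq1, changed sign. Only the 8 genes called in the fit reported had a call to lose. Over 22 alternatives, Gm15401 stayed called in 18, Gtpbp4-ps1 in 17, and Noct and Tceal8 in 13 each. Dmrta1, Gm40923, Igkv3-2 and Gm37969 stayed called in 11 each.

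No paired analysis was possible because the groups compared share only 1 replicate number. Depth limits statements on genes near 0.175 to 0.211 CPM, such as Gm37969, Gm40923 and Cdkn2a.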
